A study of Homo sapiens with 4 samples.

Results

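The cytosolic ribosomal protein genes encode the proteins of the large and small subunits of the ribosome that translates mRNA from nuclear genes. Members were the rows of the gene table whose symbol is RPL or RPS followed by a number, with or without an ending of A, X, L or L1, together with RPLP0, RPLP1 and RPLP2. This rule, which uses names and no values, took 83 of 17791 genes: 43 of the large subunit, 30 of the small subunit, 3 of the P stalk and 7 paralogs ending in L or L1. RPSA, FAU and RPL36AL are among 4 genes that encode ribosomal proteins too, lie outside the rule and are described separately. The paralog RPL7L1 is known as a nucleolar factor of large subunit assembly, so its place among the members rests on its name.

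A ribosome holds a single copy of nearly every ribosomal protein, and the mRNAs of these proteins are among the most abundant of a growing cell. Most of them start with a C followed by a run of pyrimidines, the terminal oligopyrimidine (TOP) motif, through which the kinase mTOR and the RNA-binding protein LARP1 control their translation and stability. Some paralogs stand in for the usual protein in particular tissues, such as testis and muscle.

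RNA came from engineered prostate cancer tissues, human cells held in a hydrogel of poly(ethylene glycol) and fibrinogen, at day 15. The groups had 1 library each: the LNCaP coculture, LNCaP alone, the PC-3 coculture and PC-3 alone. LNCaP is an androgen-dependent prostate cancer line (ADPC in the titles), PC-3 a castration-resistant one (CRPC-ne in the titles), and the cocultures also held BJ-5ta, an immortalised fibroblast line, at 5 cancer cells to 1 fibroblast. No group was treated with an agent, each cell type is a single line, and the culture medium is given for PC-3 tissues only. RNA was isolated from more than 2 tissues, but how they were combined into 1 column is not stated, so each difference below is between 2 libraries, no test was possible, and the intervals cover counting error only.

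Total estimated counts lay between 15520243 and 15865690, and ribosomal RNA genes took 0.751% to 2.16% of them. The 5 LNCaP markers summed to 8844 CPM, counts per 1000000 counts, in the LNCaP coculture and 7458 in LNCaP alone, and to 411 CPM in the PC-3 coculture and 461 in PC-3 alone. KLK2 and KLK3 were at 0 in both PC-3 libraries, while TMPRSS2, another of the markers, had 6384 counts in the PC-3 coculture and 7309 in PC-3 alone. The 15 fibroblast markers summed to 947 CPM in the LNCaP coculture against 4.56 CPM in LNCaP alone, and to 664 CPM in the PC-3 coculture against 137 in PC-3 alone. Fibroblast markers at 0 were 1 and 8 in the LNCaP coculture and monoculture, and 0 and 4 in the PC-3 coculture and monoculture. In bulk RNA, fewer cells of a type and less RNA per cell cannot be told apart, and the fibroblasts' own ribosomal protein mRNA is part of each coculture value. What part the fibroblasts had in the differences below was not tested.

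The bases around the start of transcription show what most members share and where some differ. Sequences are RefSeq's on GRCh38.p14, 30 bases centred on the annotated start, with the start as base 16. Capitals mark the longest run of C or T inside the window. The first 4 belong to the members that were lowest in the LNCaP coculture among those with a sequence used here, the next 3 to those that were highest, and the last 4 to paralog pairs whose balance differed between the lines.
RPL39: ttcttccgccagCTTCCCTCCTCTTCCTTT
RPS21: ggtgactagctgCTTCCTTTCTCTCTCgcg
RPS29: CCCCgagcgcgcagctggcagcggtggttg
RPS12: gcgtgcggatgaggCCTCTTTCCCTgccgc
RPL7L1: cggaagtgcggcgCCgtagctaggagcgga
RPS26: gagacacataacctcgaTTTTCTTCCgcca
RPL4: tacagcgggagtggtaagcaCTTCCTTTTC
RPL22: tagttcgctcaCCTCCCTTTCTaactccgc
RPL22L1: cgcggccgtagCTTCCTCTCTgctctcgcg
RPS27: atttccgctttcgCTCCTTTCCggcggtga
RPS27L: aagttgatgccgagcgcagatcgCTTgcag
Their windows lie at chrX:119791616-119791645 (minus strand) for RPL39, chr20:62387088-62387117 (plus) for RPS21, chr14:49598696-49598725 (minus) for RPS29, chr6:132814554-132814583 (plus) for RPS12, chr6:42879601-42879630 (plus) for RPL7L1, chr12:56041903-56041932 (plus) for RPS26 and chr15:66504841-66504870 (minus) for RPL4. Those of the pairs lie at chr1:6199581-6199610 (minus) for RPL22, chr3:170870181-170870210 (minus) for RPL22L1, chr1:153990747-153990776 (plus) for RPS27 and chr15:63157463-63157492 (minus) for RPS27L. The run was 15 bases for RPS21, 11 for RPS12, 9 for RPS26 and 2 for RPL7L1. The runs of 18 bases for RPL39, 10 for RPL4 and 4 for RPS29 reach the edge of the window, so they may be longer in the genome.

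RefSeq promoters were matched for 66 of the 83 members. A run of 8 or more pyrimidines in the 30-base window was found in 47 of them (71.2%), against 3647 of 27305 promoters of all genes (13.4%). Among the paralogs 1 of 5 had such a run, RPL22L1, against 46 of 61 other members (75.4%). The letters CCGGAAG, a core bound by ETS factors such as GABPA, on either strand of the 300-base promoter, were present in 34.8% of members and 10.7% of all promoters, and AAGATGGC, a YY1 motif, in 10.6% and 3.03%. These are matches of letters, not sites shown to be used, and the 2 motifs can overlap.

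Ribosomal protein mRNA took the largest share of counts in LNCaP alone and the smallest in the PC-3 coculture. The members summed to 597360 counts in the LNCaP coculture, or 3.85% of all counts (Wilson 95% interval 3.84% to 3.86%), against 966123 counts or 6.09% (6.08% to 6.10%) in LNCaP alone. They summed to 343042 counts or 2.19% (2.18% to 2.19%) in the PC-3 coculture, against 461212 counts or 2.91% (2.90% to 2.92%) in PC-3 alone. Each coculture thus had the smaller share of its line, and either LNCaP library had a larger share than either PC-3 library. Genes for ribosomal RNA, another RNA class, were 1.23% of counts in the LNCaP coculture, 1.46% in LNCaP alone, 2.16% in the PC-3 coculture and 0.751% in PC-3 alone.

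The level of single members followed the same order. After scaling of the libraries by TMM (trimmed mean of M values), the median member had 332.5 CPM in the LNCaP coculture and 590.4 CPM in LNCaP alone, against 203.4 CPM in the PC-3 coculture and 281.1 in PC-3 alone. Of the 500 highest genes of each library, 47 were members in the LNCaP coculture, 64 in LNCaP alone, 28 in the PC-3 coculture and 37 in PC-3 alone. At 20 CPM or more were 79, 80, 76 and 77 members in the same order of libraries. The members under 20 CPM in at least 1 library were RPL36A and all paralogs but RPL7L1.

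**Figure D1:**
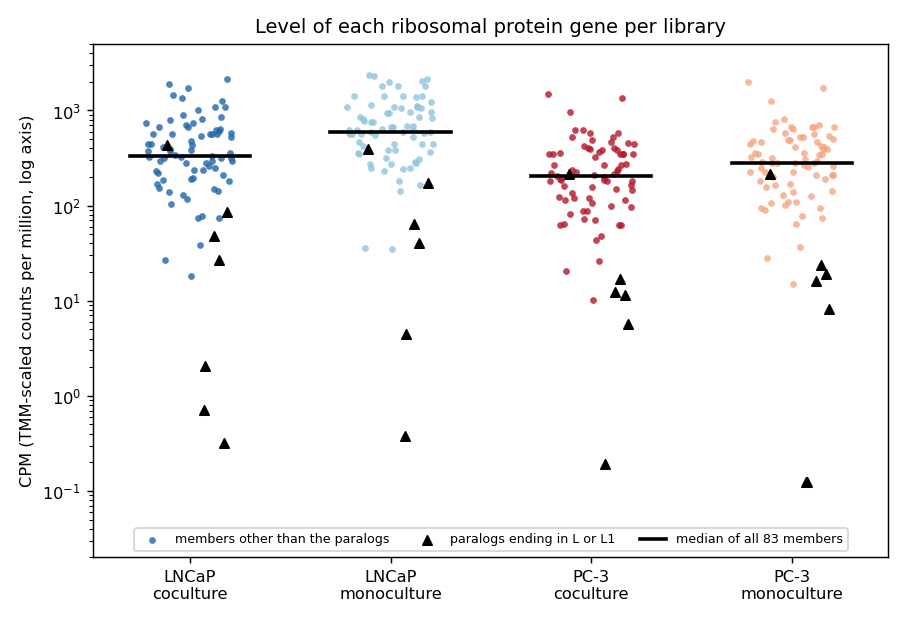
TMM-scaled CPM (log axis) of each ribosomal protein gene in the 4 libraries. Circles are the 76 members other than paralogs, triangles the paralogs, and bars the median of all 83 members, highest at 590.4 CPM in LNCaP alone. RPL39L at 0 in LNCaP alone and RPL10L at 0 in the PC-3 coculture are not drawn.

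Per kilobase of coding sequence, the scale chosen here to compare members with each other, levels were far from equal. The median of the 76 members other than paralogs was 765.6 CPM per coding kb in the LNCaP coculture, 1472 in LNCaP alone, 471.6 in the PC-3 coculture and 611.5 in PC-3 alone, and the upper quartile was 2.54, 2.23, 2.63 and 2.58 times the lower quartile in the same order. RPL41, the shortest ribosomal protein at 25 residues, was highest on average, with 4282 CPM per coding kb in the LNCaP coculture and 7622 in LNCaP alone, and 2963 in the PC-3 coculture and 4320 in PC-3 alone. RPS24, a small subunit protein mutated in some cases of Diamond-Blackfan anaemia, came next, and was the highest of all in the PC-3 libraries, at 3714 in the coculture and 5005 in the monoculture. RPL37A, RPL13 and RPS15 followed, with means over the 4 libraries of 2275, 2027 and 1912 CPM per coding kb. The lowest means were those of RPL3L (0.288), RPL10L (2.60), RPL39L (50.5), RPL36A (61.7) and RPL26L1 (61.8), 4 of them paralogs. A coding length leaves out untranslated regions, so it overstates the level of members with very short proteins. Before this division RPL41 had 571.7 CPM in LNCaP alone, under the median of 590.4 CPM over all members.

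In the LNCaP coculture almost every ribosomal protein gene was lower than in LNCaP alone, the small subunit genes most. Of 83 members, 81 reached 1 CPM in 1 of the 2 libraries, the filter used for every count of genes, and 22 of these were at least 2-fold lower and 0 at least 2-fold higher, against 3.03% lower and 4.56% higher of the 14119 genes that passed the same filter. RPL3L and RPL39L did not reach 1 CPM. The log2 fold was below 0 for 79 of 81 members, against 49.9% of all genes, with a median of -0.73 (1.66-fold lower) against 0.0003 for all genes. Other genes at 100 CPM or more had a median of 0.07, and 10 of 2521 were at least 2-fold lower. At 1.5-fold, 55 of 81 members were lower, against 8.95% of all genes, and 0 higher, against 7.88%. The counting interval of the fold lay below 1 for 78 of the 83 members and above 1 for 2.

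RPL39, a small protein that lines the exit tunnel of the large subunit (chromosome X, 119786504 to 119791630), had the lowest log2 fold. It had 599 counts in the LNCaP coculture against 2254 in LNCaP alone, a log2 fold of -1.88 or 3.70-fold lower (95% counting interval 3.38 to 4.05). RPS21, a component of the small subunit (chromosome 20, 62387103 to 62388520), had 1810 counts in the coculture against 6091 in the monoculture and was 3.31-fold lower (3.14 to 3.49). These genes, lowest in LNCaP, have short proteins of 51 and 83 residues. RPS29, a zinc-binding protein of the small subunit head (chromosome 14, 49570988 to 49598710), had 1206 counts in the coculture against 3814 in the monoculture and was 3.11-fold lower (2.91 to 3.32). RPS12, of the small subunit beak (chromosome 6, 132814569 to 132817564) had 2368 counts against 7285 and was 3.02-fold lower (2.89 to 3.17), and RPS20, of the small subunit head (chromosome 8, 56067254 to 56074506) had 3281 against 9084 and was 2.72-fold lower (2.61 to 2.83). Of these 5 members with the lowest log2 folds, 4 thus belong to the small subunit.

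By subunit, 13 of 30 small subunit genes were at least 2-fold lower in the LNCaP coculture, against 8 of 43 large subunit genes, 0 of 3 P stalk genes and 1 of 5 measured paralogs. Median log2 folds were -0.90 for the small subunit, -0.71 for the large subunit, -0.72 for the P stalk and -0.57 for the paralogs. Summed over each class, CPM in the coculture were 0.569 times those in the monoculture for the small subunit (0.565 to 0.572), 0.655 times for the large subunit (0.652 to 0.658) and 0.717 times for the P stalk (0.708 to 0.726). Other small subunit members past 2-fold were RPS18 (log2 fold -1.33), RPS25 (-1.32), RPS14 (-1.30), RPS27A (-1.26), RPS15A (-1.19), RPS27 (-1.17), RPS13 (-1.12) and RPS3A (-1.09). RPS14 is the gene whose loss marks the 5q- syndrome and RPS27A encodes a fusion of ubiquitin with a ribosomal protein. Past 2-fold in the large subunit, beside RPL39, were RPL37 (-1.41), RPL36 (-1.38), RPL27 (-1.30), RPL9 (-1.28), RPL34 (-1.17), RPL24 (-1.08) and RPL12 (-1.02).

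At the other end, a few members of the LNCaP coculture stood close to their monoculture level. RPL7L1 (chromosome 6, 42879616 to 42889900) had 6672 counts in the coculture against 6158 in the monoculture, a fold of 1.10 (1.07 to 1.14). RPS26, a small subunit protein beside the mRNA exit channel (chromosome 12, 56041918 to 56044697), had 4066 counts against 3959, a fold of 1.05 (1.001 to 1.09). RPL4, which lines the exit tunnel with RPL39 and others (chromosome 15, 66498015 to 66504855), had 33519 counts against 34152, a fold of 0.999 (0.984 to 1.01), whose log2 value of -0.001 became 0.04 when libraries were scaled by genes other than the members. RPL22, an RNA-binding protein of the large subunit, had a fold of 0.891 (0.853 to 0.930), and RPL23A, at the exit of the tunnel, of 0.877 (0.842 to 0.914). The log2 fold of RPL22, -0.17, became 0.03 after a correction for protein length described below. RPL39 and RPL4 are thus at opposite ends although both proteins face the tunnel.

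In the PC-3 coculture the same class of genes was lower by a smaller amount and more evenly. Of 81 measured members, 0 were at least 2-fold lower and 0 at least 2-fold higher, against 1.01% lower and 2.22% higher of 14417 genes. RPL3L and RPL10L did not reach 1 CPM. The log2 fold was below 0 for 80 of 81, against 49.2% of all genes, with a median of -0.45 (1.36-fold lower) against 0.004 for all genes and 0.02 for 2632 other genes at 100 CPM or more. At 1.5-fold, 9 members were lower, against 3.86% of all genes, and 0 higher, against 4.65%. The median was -0.47 for the small subunit, -0.43 for the large subunit, -0.39 for the P stalk and -0.49 for the 5 measured paralogs. Summed CPM of all members in the PC-3 coculture were 0.758 times those in PC-3 alone (0.754 to 0.761).

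The lowest members in the PC-3 coculture included a pair that was among the 5 lowest in the LNCaP coculture, RPS20 and RPL39. RPL37, a zinc-binding protein of the large subunit (chromosome 5, 40825262 to 40835222), stood at 3187 counts in the PC-3 coculture against 5501 in PC-3 alone and was 1.69-fold lower (1.62 to 1.77). RPS20 had 1779 counts against 3004 and was 1.66-fold lower (1.56 to 1.76), and RPL39 had 749 against 1231 and was 1.61-fold lower (1.47 to 1.77). The others among the 5 lowest were RPL39L, the paralog of RPL39, with 181 counts against 304, and RPL35A, a further Diamond-Blackfan anaemia gene, with 2912 against 4619. The highest were RPL7L1 with 3378 counts in the coculture against 3391 in the monoculture (fold 1.02, 0.967 to 1.07), RPS19, the gene most often mutated in Diamond-Blackfan anaemia (fold 0.890, 0.858 to 0.923), RPL3, beside the peptidyl transferase centre (0.873, 0.848 to 0.898), RPL4 (0.853, 0.826 to 0.880) and RPS2, beside the mRNA entry channel (0.841, 0.811 to 0.872). RPL7L1 was the member with a log2 fold above 0 in both cocultures. The log2 fold of RPS19, -0.17, became 0.03 after the correction for protein length, and that of RPS27, -0.26, became 0.07.

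**Figure D2:**
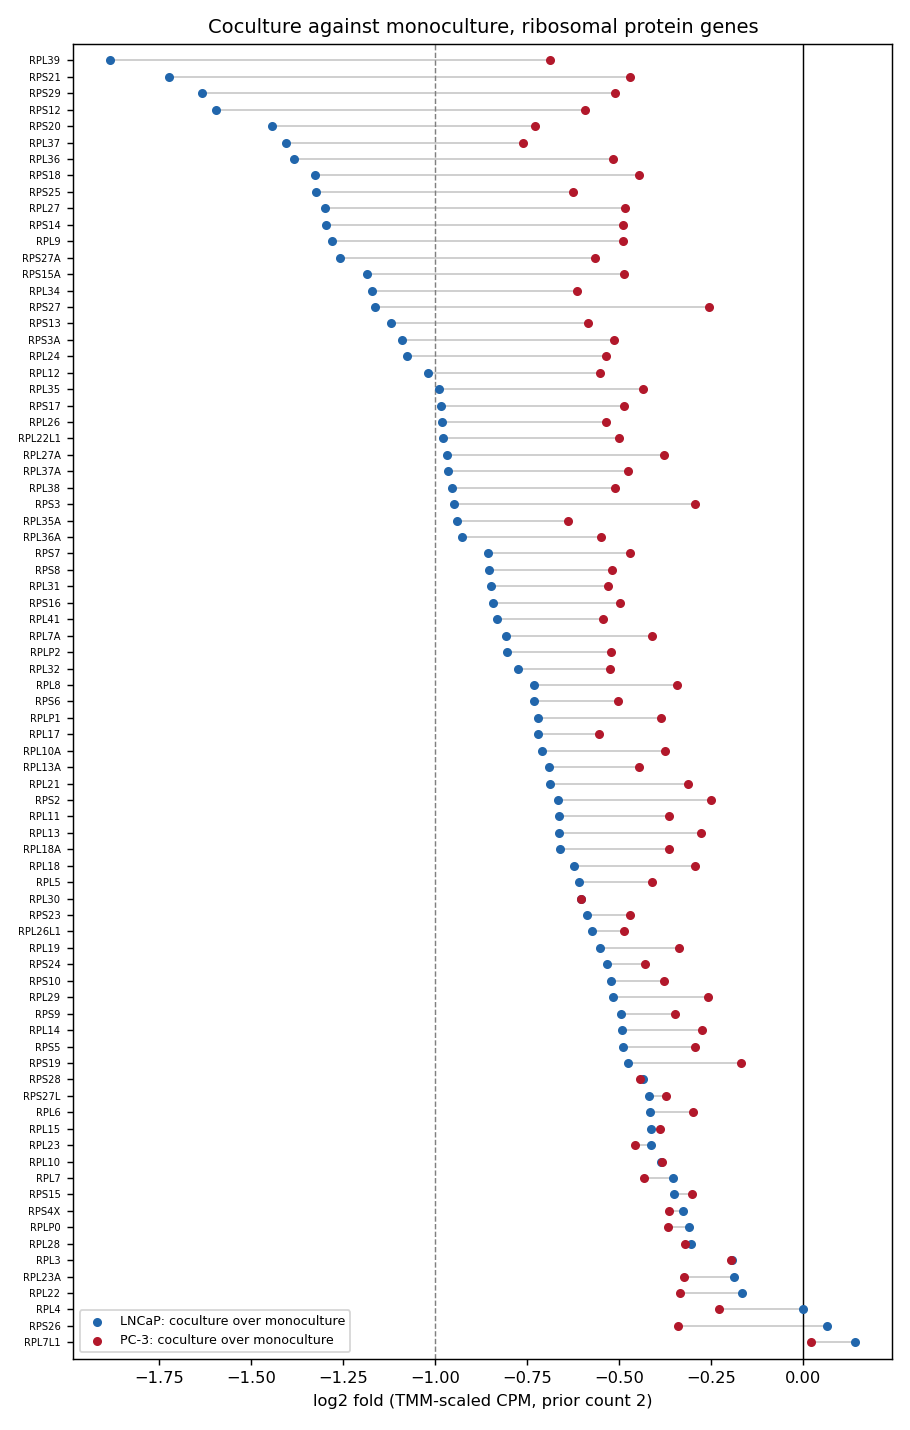
Log2 fold of coculture over monoculture for members in LNCaP (blue) and PC-3 (red), sorted by the LNCaP value, with a dashed line at 2-fold lower. RPL39 is lowest in LNCaP at -1.88 and RPL7L1 highest at 0.14, while the PC-3 values lie between -0.76 and 0.02. RPL3L, RPL10L and RPL39L, which had 3 counts or fewer in at least 1 library, are among the members left out.

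The lines were set against each other by subtracting the PC-3 coculture log2 fold from that of LNCaP. This difference was below 0 for 68 of 82 members (82.9%), against 48.0% of 15531 genes, with a median of -0.32 against 0.02. Its counting interval lay below 0 for 62 members and above 0 for 8, against 2824 and 3251 of the 15531 genes. Such intervals are narrower for genes with many counts, as most members are. The median was -0.46 for the small subunit and -0.30 for the large subunit. RPS21 had the lowest difference, -1.25 (-1.37 to -1.14), before RPL39 at -1.19 (-1.38 to -1.01) and RPS29 at -1.12 (-1.24 to -1.01). Of the 8 above 0, RPL39L, from 5 against 0 counts in LNCaP, was at 2.54 (0.25 to 4.82), and the highest of the other 7 were RPS26 at 0.40 (0.29 to 0.52), RPL4 at 0.23 (0.18 to 0.28) and RPL22 at 0.17 (0.08 to 0.26).

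The order of the members was partly shared between the lines, in comparisons with no library in common. Across the 80 members with more than 3 counts in every library, the LNCaP and PC-3 coculture log2 folds had a Pearson correlation of 0.70 and a Spearman correlation of 0.69, given as a description across genes that share depth and length within a library. One property that ran along this order was protein length. The Spearman correlation of log2 fold with residues was 0.41 in LNCaP and 0.51 in PC-3 over 81 members each, against 0.13 and 0.37 over other genes.

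Other short genes were lower in the cocultures too, by less than the members. In LNCaP, members of up to 100 residues had a median log2 fold of -1.06 (10 genes, 5 of them at least 2-fold lower), against -0.35 for 251 other genes of that length, of which 12.7% were at least 2-fold lower. Members of over 100 and up to 150 residues had a median of -0.85 against -0.19 for others, those of up to 200 residues -0.72 against -0.06, and those of up to 400 residues -0.66 against 0.02. Members thus lay below other genes in each of these length classes. In PC-3 the members' medians for the same 4 classes were -0.51, -0.49, -0.45 and -0.37, against -0.33, -0.21, -0.15 and -0.05 for other genes. After a curve on protein length, fitted over the other genes, was subtracted, the members' median was -0.62 in LNCaP and -0.26 in PC-3, and 15 members were at least 2-fold lower in LNCaP. What makes short mRNAs lower in these libraries was not tested.

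**Figure D3:**
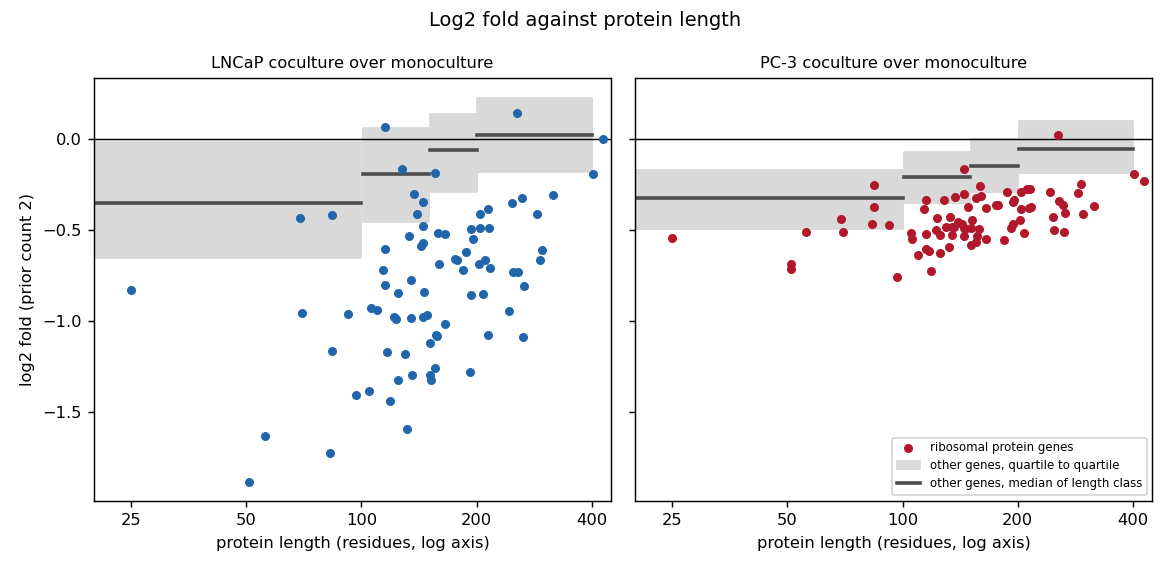
Log2 fold of coculture over monoculture against protein length (log axis) for the measured members in LNCaP (left) and PC-3 (right). Grey bands span the quartiles and dark lines the medians of other genes in 4 length classes of up to 400 residues. The members' medians lie below those of the other genes in each class, from -1.06 against -0.35 in the shortest class in LNCaP to -0.37 against -0.05 in the longest drawn in PC-3.

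Members with a pyrimidine run of 8 or more at the start had slightly lower median log2 folds in the cocultures than those without. In the LNCaP coculture the median log2 fold was -0.83 for the 47 with the run and -0.66 for the 19 without, while the quartiles of all measured members were -1.08 and -0.50. In the PC-3 coculture it was -0.45 and -0.39, and between the monocultures, LNCaP over PC-3, 1.20 and 0.92. The split took in the paralogs, of which 1 of 5 had the run, and RPL10L, which did not reach 1 CPM in PC-3. Of the 3 lowest named members in LNCaP, RPL39 and RPS21 had runs of 18 and 15 bases and RPS29 one of 4. Of the 3 highest, RPL7L1 had a run of 2 bases, RPS26 of 9 and RPL4 of 10. Whether the run bears on the fold was not tested. A single annotated start was taken per gene, and which starts these cells use was not tested, so this split depends on the annotation.

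RPL5, RPL11, RPS6 and the P stalk genes were lower in both cocultures, as were 79 of 81 measured members in LNCaP and 80 of 81 in PC-3. The median member was 1.66-fold lower in LNCaP and 1.36-fold lower in PC-3. RPL5 and RPL11, which with 5S RNA bind the ubiquitin ligase MDM2 when ribosome assembly fails, were 1.53-fold lower (1.48 to 1.57) and 1.59-fold lower (1.52 to 1.66) in the LNCaP coculture, and 1.33-fold (1.27 to 1.39) and 1.29-fold lower (1.23 to 1.35) in the PC-3 coculture. RPS6, the target of the S6 kinases downstream of mTOR, was 1.66-fold lower in the LNCaP coculture (1.63 to 1.69) and 1.42-fold lower in the PC-3 coculture (1.36 to 1.47). RPLP0, which anchors the P stalk and is often used as a reference gene, was 1.24-fold lower (1.22 to 1.26) in LNCaP and 1.29-fold lower (1.26 to 1.32) in PC-3. Its stalk partners RPLP1 and RPLP2 were 1.65-fold and 1.75-fold lower in LNCaP, and 1.31-fold and 1.44-fold lower in PC-3.

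Between the lines, most ribosomal protein genes were higher in LNCaP. In the monocultures, where RPL3L did not reach 1 CPM, 45 of 82 measured members were at least 2-fold higher in LNCaP and 1 at least 2-fold lower, against 22.1% higher and 23.6% lower of 15160 genes. The median log2 fold was 1.18 (2.26-fold higher) against 0.04 for all genes, and 7 of 82 members were below 0, against 48.7% of all genes. In the cocultures 35 of 82 were at least 2-fold higher in LNCaP and 2 lower, against 20.7% and 23.6% of 15155 genes, with a median of 0.87 and 14 of 82 below 0, against 49.8% of all genes. At 1.5-fold, 65 members were higher in LNCaP and 3 lower in monoculture, against 32.3% and 31.4% of all genes, and 55 higher and 5 lower in coculture, against 31.0% and 32.1%. Summed CPM of the members in LNCaP were 2.12 times those in PC-3 in monoculture (2.11 to 2.13) and 1.76 times in coculture (1.75 to 1.77). Both cocultures held the same fibroblast line, and fibroblast marker sums were 947 CPM in the LNCaP coculture and 664 CPM in the PC-3 coculture. The same markers summed to 4.56 CPM in LNCaP alone and 137 CPM in PC-3 alone, so these sums do not measure fibroblasts alone.

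Several members exceeded this general difference. RPL17, beside the tunnel exit (chromosome 18, 49488481 to 49492465) had 6106 counts in LNCaP alone against 1015 in PC-3 alone and was 6.08-fold higher (5.69 to 6.51), although the read-through row RPL17-C18orf32, with 1237 and 436 counts in the same libraries, may share its reads. RPS3A, of the small subunit (chromosome 4, 151099628 to 151104642) had 19470 counts against 3344 and was 5.89-fold higher (5.67 to 6.11), RPL26 was 4.95-fold higher (4.72 to 5.19) and RPS12 4.94-fold higher (4.67 to 5.23). In the cocultures, among members with at least 100 counts in the higher library, RPL17, RPL4, RPL23 and RPS3A came next after RPL22L1, with log2 folds of 2.44, 2.25, 2.23 and 1.98. RPS12, 4.94-fold higher in LNCaP monoculture, was 2.47-fold higher (2.29 to 2.66) in coculture. The members thus differed from each other between the lines as well as together.

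Few members were lower in LNCaP. RPS24 (chromosome 10, 78033863 to 78056806) had 17026 counts in LNCaP alone against 31876 in PC-3 alone and was 1.85-fold lower (1.82 to 1.89), and it was 1.99-fold lower (1.94 to 2.03) in coculture. RPL30 and RPL8, both on chromosome 8, were 1.51-fold lower (1.46 to 1.56) and 1.19-fold lower (1.17 to 1.22) in LNCaP alone. RPS29 had a fold of 0.911 (0.872 to 0.952) in monoculture and was 2.39-fold lower (2.23 to 2.56) in the LNCaP coculture than in the PC-3 coculture. RPL22 (fold 0.962, 0.923 to 1.00) and RPL10, which joins late in large subunit assembly (0.975, 0.948 to 1.00), were near equal between the monocultures. The 4 members on chromosome 8, grouped after their values were seen, had a median log2 fold of -0.002 in monoculture but differed widely. RPL30 was at -0.59, RPL8 at -0.26, RPL7 at 0.25 and RPS20 at 1.61. The 519 other genes measured on that chromosome had a median of -0.52.

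**Figure D4:**
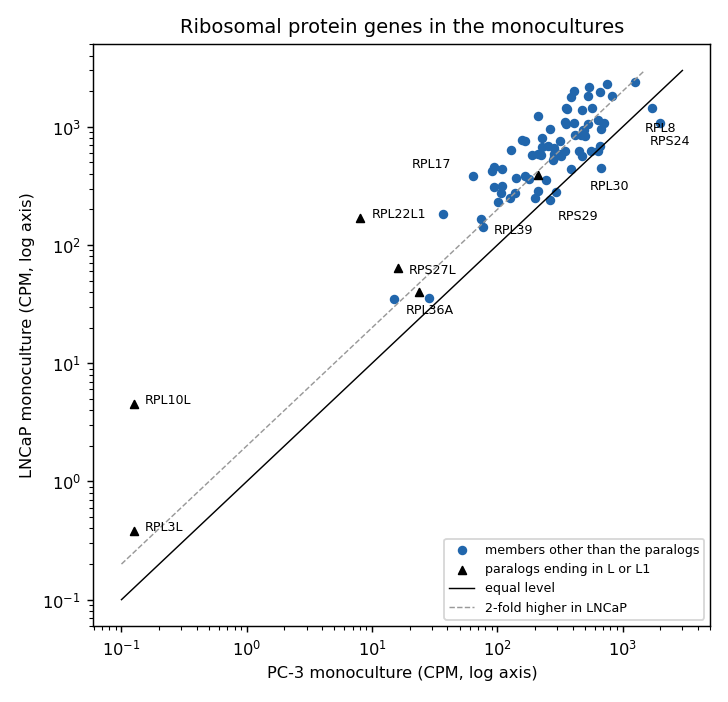
CPM of each member in LNCaP alone against PC-3 alone, both on log axes, with lines at equal level (solid) and 2-fold higher in LNCaP (dashed). Most circles lie above the solid line, and RPS24, RPL30, RPL8 and RPS29 below it. RPL39L, at 0 in LNCaP and 304 counts in PC-3, is not drawn.

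Paralogs had the highest and the lowest log2 fold between the lines. RPL22L1, a paralog of RPL22 (chromosome 3, 170864875 to 170870195), had 1342 counts in the LNCaP coculture and 2696 in LNCaP alone, against 89 in the PC-3 coculture and 129 in PC-3 alone. It was 21.1-fold higher in LNCaP in monoculture (17.7 to 25.4) and 15.2-fold higher in coculture (12.3 to 19.1). Its partner RPL22 differed little between the lines, with 3892, 4448, 3634 and 4673 counts in the same order of libraries. RPL22L1 was thus 25.6% of the pair's counts in the LNCaP coculture and 37.7% in LNCaP alone, against 2.39% in the PC-3 coculture and 2.69% in PC-3 alone. Between the LNCaP libraries it was 1.97-fold lower in coculture (1.85 to 2.11), more than RPL22, which was 1.12-fold lower (1.07 to 1.17).

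RPL39L, a paralog of RPL39 best known from testis (chromosome 3, 187120948 to 187139496), showed the opposite pattern. It had 5 counts in the LNCaP coculture and 0 in LNCaP alone, against 181 in the PC-3 coculture and 304 in PC-3 alone. In monoculture it was at least 100-fold lower in LNCaP, set against 3 counts, and in coculture 35.8-fold lower (15.1 to 112). It made up 0.828% of the pair's counts in the LNCaP coculture and 0% in LNCaP alone, where a count of 0 allows up to 0.133%, against 19.5% and 19.8% in the PC-3 coculture and monoculture. PC-3 tissues thus held detectable RPL39L while LNCaP alone did not at this depth.

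RPS27L, a paralog of RPS27, had 736 counts in the LNCaP coculture and 1002 in LNCaP alone, against 195 and 258 in the PC-3 coculture and monoculture. It was 3.93-fold higher in LNCaP in monoculture (3.42 to 4.52). Its share of the pair was 39.1% in the LNCaP coculture against 27.7% in LNCaP alone, with RPS27 2.24-fold lower in the coculture (2.09 to 2.41) and RPS27L 1.34-fold lower (1.22 to 1.47). In PC-3 the shares were 16.7% in coculture and 17.9% in monoculture. RPL7L1 took a larger share beside RPL7 in either coculture, with 49.3% against 40.9% in LNCaP and 38.0% against 31.0% in PC-3. RPL26L1 took a smaller share of its pair in LNCaP, 7.71% in coculture and 5.93% in monoculture, than in PC-3, 16% and 15.6%.

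RPL10L, a testis paralog of RPL10, had 32 counts in the LNCaP coculture and 71 in LNCaP alone, against 0 and 2 in the PC-3 coculture and monoculture. RPL3L, the paralog of RPL3 in heart and skeletal muscle, had 11 and 6 counts in the LNCaP coculture and monoculture and 3 and 2 in the PC-3 coculture and monoculture, under 1 CPM in every library. RPL36AL, outside the rule, gave most of the counts of its pair with RPL36A, 81.5% and 78.6% in the LNCaP coculture and monoculture and 94.6% and 93.2% in the PC-3 coculture and monoculture. The read-through row RPL36A-HNRNPH2 held 1372, 739, 615 and 554 counts in those libraries, more than RPL36A itself with 283, 550, 161 and 241, so the level of RPL36A is uncertain.

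**Figure D5:**
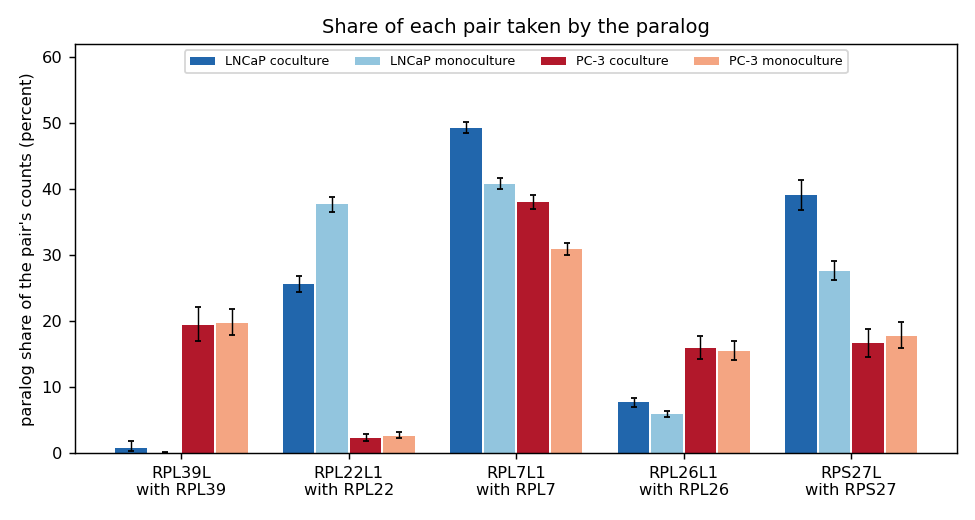
Paralog share of the summed counts of each pair, in percent, for LNCaP coculture, LNCaP monoculture, PC-3 coculture and PC-3 monoculture, with Wilson 95% intervals for counting error. RPL22L1 reaches 37.7% in LNCaP alone and stays under 3% in PC-3, and RPL39L is 19.8% in PC-3 alone and 0% in LNCaP alone.

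Near-identical copies limit these values, since reads of a processed pseudogene and its parent gene can be exchanged. The 25 rows named as ribosomal protein pseudogenes took 0.228% of counts in the LNCaP coculture and 0.394% in LNCaP alone, and 0.134% in the PC-3 coculture and 0.186% in PC-3 alone. Most of this was RPL13AP5, which had more counts than its parent RPL13A in every library, with 65.0% and 67.8% of the pair in the LNCaP coculture and monoculture and 71.6% and 72.3% in the PC-3 coculture and monoculture. RPL13A values are therefore uncertain.

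The ribosomal protein genes outside the rule were lower in the cocultures as well. These 4 genes, RPSA, FAU and RPL36AL among them, had a median log2 fold of -0.41 in the LNCaP coculture and -0.25 in the PC-3 coculture. All 4 were below 0 in each, against 49.9% of all genes in LNCaP and 49.2% in PC-3. FAU, a fusion of a ubiquitin-like protein with a small subunit protein, was at -0.57 in LNCaP and -0.37 in PC-3.

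The 16 other TOP mRNAs, which encode translation factors and similar proteins with a median length of 374 residues, were below 0 less far than the ribosomal protein genes. Their median log2 fold was -0.20 in the LNCaP coculture, with 12 of 16 below 0 against 49.9% of all genes. In the PC-3 coculture it was -0.17, with 15 of 16 below 0 against 49.2%, and 0 passed 2-fold in either. EEF1B2, a nucleotide exchange factor of elongation, was lowest in LNCaP at -0.80 and EIF3H, an initiation factor subunit, highest at 0.20. TPT1, the translationally controlled tumour protein, was lowest in PC-3 at -0.58 and HNRNPA1 highest at 0.03. Between the monocultures this list had a median of 0.98 in LNCaP over PC-3, close to the members' 1.18. Of the 16, 7 were at least 2-fold higher and 0 lower, against 22.1% and 23.6% of all genes. EEF2, the elongation factor of translocation, led with 1.87, and EEF1D was lowest at -0.56.

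Medians of the genes that build or control ribosomes stood near 0 in both cocultures, with 0 genes past 2-fold. Of all genes, 3.03% were at least 2-fold lower and 4.56% higher in the LNCaP coculture, and 1.01% and 2.22% in the PC-3 coculture. At such shares, lists of this size would hold few genes past 2-fold. Single measured genes ran from TIA1 at -0.64 to LARP4 at 0.35 in LNCaP, and from POLR1H at -0.47 to TSC2 at 0.33 in PC-3. The median of 30 ribosome biogenesis genes was 0.04 in the LNCaP coculture and -0.01 in the PC-3 coculture, that of 15 RNA polymerase I genes -0.13 and 0.11, and that of 17 measured regulators of TOP mRNAs -0.08 and -0.04. The 8 ribosomal protein chaperones had medians of 0.04 and -0.06. Their proteins are long, with median lengths of 475 residues for biogenesis, 619.5 for RNA polymerase I, 482 for the regulators and 964 for the chaperones. Between the monocultures the median was 0.01 for biogenesis, 0.25 for RNA polymerase I, -0.02 for the regulators and 0.24 for the chaperones, all under the members' 1.18. Of the 17 measured regulators, 8 were above 0 and 9 below, near the share of all genes, 48.7% of which were below 0. MYC was highest at 2.06, with 5924 counts in LNCaP against 1438 in PC-3, and EIF4EBP2 lowest at -1.065. Whether they bear on the members' levels was not tested.

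Mitochondrial lists, also rich in short proteins, lay between. The rows named as mitochondrial ribosomal proteins, with a median length of 195 residues, had a median of -0.20 in the LNCaP coculture, where 66 of 82 rows were below 0 and 2 at least 2-fold lower, and -0.18 in the PC-3 coculture, where 72 of 81 were below 0 and 0 passed 2-fold. Those names take in 4 antisense and pseudogene rows, of which the antisense MRPL23-AS1 was lowest in LNCaP at -1.71 and the pseudogene MRPS31P5 lowest in PC-3 at -0.70. Without the 4 rows, a choice made after seeing the data, the medians were -0.20 and -0.16 over 78 genes, and MRPL34 alone was at least 2-fold lower in LNCaP. The nuclear-encoded respiratory chain, with 128 residues, had a median of -0.44 in the LNCaP coculture, where 66 of 73 were below 0 and 9 at least 2-fold lower, and -0.31 in the PC-3 coculture, where 70 of 76 were below 0 and 0 passed 2-fold. Of all genes, 49.9% were below 0 and 3.03% at least 2-fold lower in the LNCaP coculture, and 49.2% and 1.01% in the PC-3 coculture. A read-through row, ATP5MF-PTCD1, was highest of the respiratory chain rows in PC-3 at 0.82. The lowest of them were NDUFA1 at -1.52 in LNCaP and NDUFB1 at -0.85 in PC-3, both small subunits of complex I.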

How the data were processed

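Bulk RNA sequencing of 4 libraries, 1 per group, was analysed. RNA was extracted with QIAshredder and RNeasy and made into TruSeq RNA v2 libraries, which do not mark strand, per the labels' protocols. The submitters' processing notes name FastQC, STAR, Partek and hg38; versions, annotation and treatment of reads with several matches are not given in the sources used here. The deposited table holds the authors' estimated counts per gene symbol, unscaled, rounded here to whole numbers. Counts were scaled by TMM (edgeR 4.0.16, R 4.3.3) to CPM per 1000000, and log2 folds used a prior count of 2. Ratios have exact 95% conditional binomial intervals, shares Wilson intervals, and the difference of log2 folds a delta-method interval. With 1 library per group no test was run. Genes needed 1 CPM in 1 of 2 libraries, and 2-fold was the threshold. A count of 0 was set against 3 counts. Named members were the 5 highest and 5 lowest log2 folds per comparison with 100 counts or more, the 5 highest and lowest per coding kb, those under 20 CPM, those past 2-fold in a coculture and a list of known genes. Protein lengths came from GENCODE 29 for all 83 members, in place of RefSeq lengths, and positions from RefSeq on GRCh38.p14. The table's chromosome matched RefSeq for 82 members; RPL21 did not. Alternatives used DESeq2 1.42.0 size factors, total counts, scaling without the members, other filters, a prior of 0.5, a length correction, no paralogs, a 1.5-fold threshold and other share totals. Fold computations were checked on simulated counts. The members and lists were chosen with earlier results of these data known. Python 3.11.15, numpy 2.4.6, pandas 2.3.3, scipy 1.17.1, statsmodels 0.14.6 and matplotlib 3.10.9 were used. Some genes of the table and of the gene lists are not reported here.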

Additional observations from a re-analysis of the deposited data

Results flagged for a closer look

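RPS26 had log2 folds of opposite sign in the cocultures, 0.064 in LNCaP (4066 counts in coculture, 3959 in monoculture) and -0.34 in PC-3 (1556 counts in coculture, 2006 in monoculture), each with a counting interval that leaves out equality. The difference, LNCaP minus PC-3, was 0.40 (0.29 to 0.52, counting error only), and it was not tested over replicates. 

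Pseudogene rows, which are not members, held many counts. RPL13AP5 had 25558 counts in the LNCaP coculture, 47521 in LNCaP alone, 16624 in the PC-3 coculture and 23946 in PC-3 alone. RPSAP58 had 8641, 13686, 3649 and 4585 counts in the same order of libraries.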

How the results depend on the processing

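With 1 library per group, replicates could not be left out, the spread between tissues is unknown, and depth limits the rare paralogs most. No paired analysis was possible because each group has 1 library, so the groups share a single replicate number. Medians of the members kept their sign under every alternative tried. Of the values for named members 6 changed sign, 0 of them at least 2-fold as reported. Under the length correction RPS19 in PC-3 was 0.03 (-0.17 as reported), RPS27 in PC-3 0.07 (-0.26) and RPL22 in LNCaP 0.03 (-0.17). RPL4 in LNCaP, reported at -0.001, was 0.004 with total counts, 0.04 with DESeq2 size factors and 0.04 with TMM from genes other than the members. Under the length correction 118 values of named members moved by more than their counting interval and 62 did not. With DESeq2 size factors 43 moved and 137 did not, with TMM from genes other than the members 32 and 148, and with total counts or a prior count of 0.5 all 180 stayed within it.

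Under the length correction the median log2 fold of the members was -0.62 in the LNCaP coculture, -0.26 in the PC-3 coculture and 1.06 between the monocultures, LNCaP over PC-3. With DESeq2 size factors the last was 1.11. At a 1.5-fold threshold 55 members were lower in the LNCaP coculture and 9 in the PC-3 coculture, 3 were lower in LNCaP in monoculture, and 55 were higher and 5 lower in LNCaP in coculture. With no low-value filter 1 member, RPL39L (5 counts against 0), was at least 2-fold higher in the LNCaP coculture. At 20 CPM or more, and equally without the paralogs, 0 members were at least 2-fold lower in LNCaP in monoculture and 1 in coculture.

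Without ribosomal RNA genes in the total, members took 3.90% of counts in the LNCaP coculture, 6.18% in LNCaP alone, 2.23% in the PC-3 coculture and 2.93% in PC-3 alone. With pseudogene rows added to the members, an alternative chosen after seeing the data, they took 4.08%, 6.49%, 2.32% and 3.09% in the same order.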
